A study of Mus musculus musculus x Mus musculus castaneus with 12 samples.

Results

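Maternal and paternal alleles were compared in wild-type mouse embryonic stem (ES) cells from reciprocal F1 crosses between C57BL/6J (BL6) and *Mus castaneus* (*cast*). In the BC cross the mother was BL6 and the father *cast*, and in the CB cross the mother was *cast* and the father BL6. The members were chosen by position and coverage: autosomal genes off chromosomes 1 and 8 with at least 20 SNP-containing fragments, BL6 and *cast* together, in each of the 4 male wild-type (wt) libraries. This rule gave 9258 of the 24346 genes in the files. The 4 libraries are male BC wt 1 and 2 and male CB wt 1 and 2, from a series of 12 libraries that also holds male *Kdm6a* knockout (KO) clones of both crosses and a female BC line. All cells were grown in serum with LIF on mouse embryonic fibroblast feeders, from which they were separated on gelatin before RNA was taken. Each cross is 1 male line, so a difference between the crosses cannot be told apart from a difference between the 2 lines. The paper states that the wt CB line carries an actin-GFP transgene. The paper calls the wt replicates of each cross biological replicates, but no source says whether replicates 1 and 2 were separate cultures. The p-values measure the spread between these samples only.

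Genomic imprinting marks some alleles in the germ line of one parent, so that offspring express the gene from the maternal or the paternal copy alone. The mark is DNA methylation at an imprinting control region, which is set in the oocyte or in sperm and kept through the erasure that follows fertilization by factors such as ZFP57 and TRIM28. Imprinted genes lie in clusters in which a long noncoding RNA is often expressed from one parent and protein-coding genes from the other. A small group of genes, called noncanonical here, follows maternal histone H3K27 methylation instead and is imprinted mainly in the early embryo and placenta. Cultured ES cells are known to lose imprints at some clusters. Because the crosses are reciprocal, a parental effect favours the same parent in BC and CB, whereas a strain effect favours the same strain and thus opposite parents.

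The 4 libraries held 51384489 to 83497935 diploid fragments, of which 17.8% to 18.1% carried a SNP that assigned them to an allele, and BC was sequenced more deeply than CB. The labels of mother and father held on the X chromosome, which a male receives from the mother: the median X-linked gene was 100% maternal in all 4 libraries. Of all X-linked SNP fragments, 99.3% and 99.2% were maternal in BC wt 1 and 2, but 90.05% and 90.03% in CB wt 1 and 2, and the source of the paternal ones was not tested. Chromosomes 1 and 8 had a median maternal share of 64.2% to 65.7% in BC, against 51.3% to 52.1% in CB, and were left out. The other 17 autosomes had medians of 47.7% to 49.7% in the BC libraries and 51.2% to 56.7% in the CB libraries. Shares were divided by the maternal-to-paternal ratio of summed SNP fragments, 0.857 and 0.854 in CB wt 1 and 2. The scaling of the calls below set that ratio at 0.991 and 0.989, and the median log2 ratio in CB was then -0.025. In BC the ratios were 1.12 and 1.13 against 1.06 and 1.07. All 10 ES cell markers were detected in each library. The 10 fibroblast feeder markers summed to 52.0 and 47.5 CPM (fragments scaled to the depth of the library) in BC wt 1 and 2 and to 175 and 164 CPM in CB wt 1 and 2. *Col1a1* held the largest part in CB, at 20.4 and 16.8 CPM in BC and 122 and 113 CPM in CB. The SNP fragments of the 10 genes were 48.7% and 49.2% BL6 in BC and 34.9% and 38.1% BL6 in CB. The genotype of the feeders is not given in the sources used here, and their part in the results was not tested.

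The first question was which genes favour one parent whatever its strain. Parent and strain of the allele were fitted together with edgeR's quasi-likelihood test with Benjamini-Hochberg adjustment. A gene was called at an adjusted p under 0.05, a ratio of at least 2, and the same parent higher in the mean of each cross. The maternal allele was higher for 191 genes (2.06% of those tested) and the paternal allele for 49 genes (0.529%), in all 240 genes or 2.59%. The called parent was higher in each of the 4 libraries for 156 of the 191 and 42 of the 49. The others were called on the means of the crosses, and some of them were near equality in BC. The same fit gave a strain effect for 1390 genes (15.0%), with BL6 higher for 758 and *cast* higher for 632. Most of the parental calls were unequal between the crosses. Of the 191 maternal calls, 27 reached a ratio of 2 in both crosses (0.292% of the genes tested), 154 in CB only and 10 in BC only. Of the 49 paternal calls, 15 reached it in both crosses (0.162%), 26 in CB only and 8 in BC only. Alleles were scaled by the trimmed mean of M values (TMM). With the allele ratio taken over all autosomal genes instead, chromosomes 1 and 8 included, the median of all genes moved to log2 -0.23 in BC and 0.20 in CB. The maternal calls were then 115, and the genes at a ratio of 2 in both crosses were 18 maternal and 19 paternal.

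**Figure D1:**
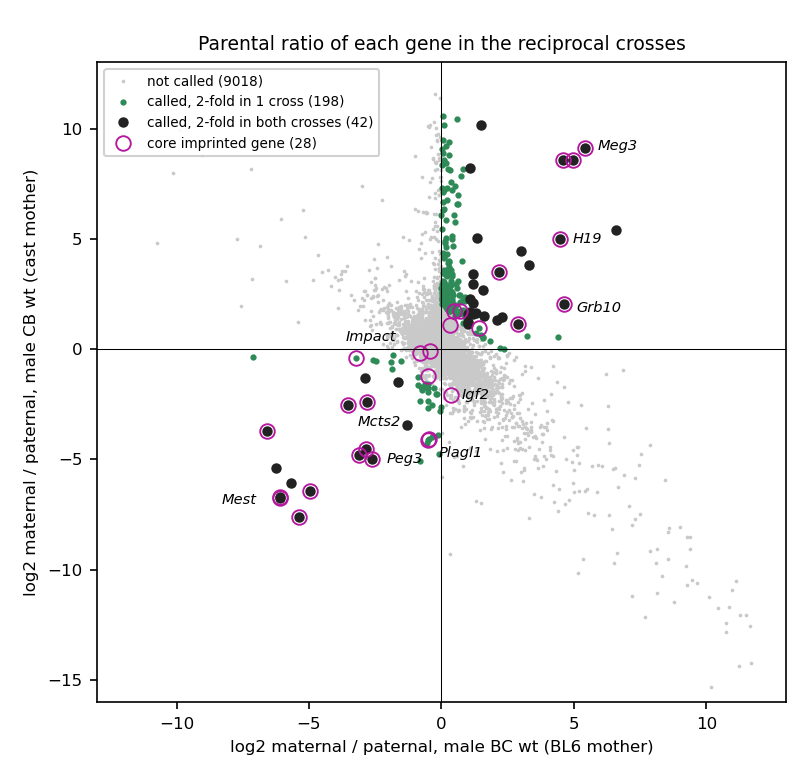
Log2 ratio of maternal to paternal SNP fragments of each of 9258 genes in male BC wt (horizontal axis) and male CB wt (vertical axis), each from 2 libraries; axes are log2 scales and 0 is equal expression. Parental effects lie in the upper right and lower left, strain effects in the upper left and lower right, and the 42 genes at a ratio of 2 in both crosses (black) include most core imprinted genes (circled), while a band of called and uncalled genes along the vertical axis is more maternal in CB than in BC.

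Known imprinted genes made up much of the set that was 2-fold in both crosses. A list of 81 imprinted genes was drawn up from textbook knowledge: 40 core genes imprinted in most tissues, 5 noncanonical genes, and 36 genes imprinted only in certain tissues such as placenta or brain. Of these, 54 were tested, 23 had fewer than 20 SNP fragments in a library, 3 lie on chromosomes 1 or 8 and 1 symbol was not found. Of 28 core genes tested, 9 of the 10 listed as maternal were called maternal and 13 of the 18 listed as paternal were called paternal, against 2.06% and 0.529% of all genes. The median log2 ratio toward the listed parent was 2.93 for the core genes, 0.12 for the 4 noncanonical genes tested and 0.20 for the 22 tissue-restricted ones. None of the noncanonical or restricted genes was called for a parent by edgeR, DESeq2 or limma, although 3 and 12 of them had an unadjusted p under 0.05 with edgeR. The share of all genes under that unadjusted p was not counted. A strain effect was called for 2 of the 4 and 4 of the 22, against 15.0% of all genes tested. The list holds 7 of the 27 maternal and 10 of the 15 paternal genes that were 2-fold in both crosses.

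The state of each gene was read in each cross from the share of the listed parent, after division by the allele ratio of the library. Shares of 90% or more in both replicates were taken as monoallelic, and shares of 66.7% or more as biased. As shares and calls were scaled differently, 66.7% is not exactly the ratio of 2 of the calls. *Zim1*, for example, was 69.5% maternal in CB at a log2 ratio of 0.97. Of the 28 core genes, 9 were monoallelic in both crosses and 17 had at least 66.7% from the listed parent in all 4 libraries. A further 7 reached 66.7% in 1 cross only, 5 of them in CB and 2 in BC, and 4 reached it in neither. Intervals and floors of counts given below cover counting error only.

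**Figure D2:**
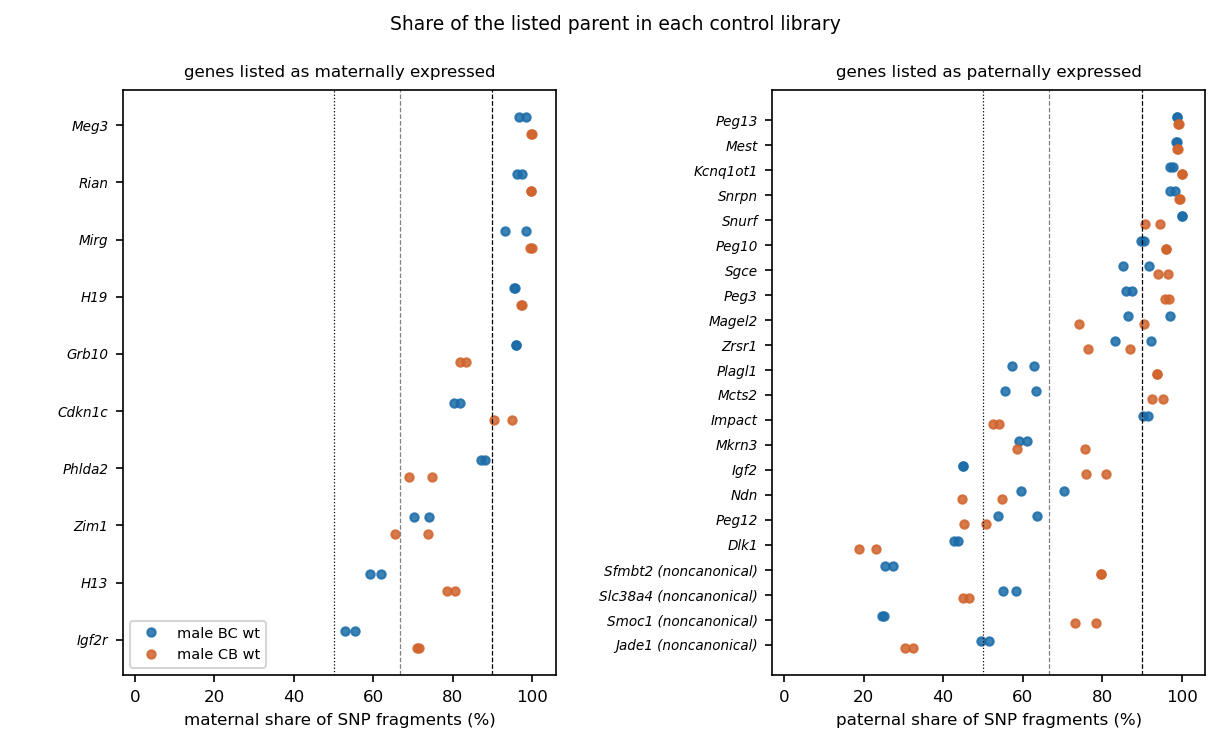
Share (%) of SNP fragments from the listed parent for 10 maternal (left) and 22 paternal (right) core and noncanonical imprinted genes; each point is 1 library, blue for male BC wt and orange for male CB wt, with lines at 50% (dotted), 66.7% and 90% (dashed). The upper genes sit near 100% in all 4 libraries, *Plagl1*, *Mcts2* and *Igf2* approach equality in BC only, and *Impact* in CB only.

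The noncoding RNAs of the *Dlk1*-*Meg3* cluster on chromosome 12 had the largest maternal ratios among the listed genes. *Meg3*, a maternally expressed long noncoding RNA (chr12:109541001-109571726 of GRCm38, plus strand), had 305 maternal and 4 paternal fragments in BC wt 1 and 306 and 9 in BC wt 2. It had 1611 and 3 in CB wt 1 and 1555 and 2 in CB wt 2. The maternal share was thus 97.7% ± 1.2 in BC and 99.9% ± 0.035 in CB (SD, n = 2 each), and the log2 ratio of maternal to paternal was 7.35 (SE 0.14). *Rian*, which hosts snoRNAs, and *Mirg*, which hosts microRNAs, lie downstream and were 96.7% ± 0.84 and 95.9% ± 3.7 maternal in BC and 99.8% in CB. In *Mirg* no paternal fragment was seen among 376 in CB wt 1, which allows a share of up to 0.798%. The total level of *Meg3* was at 25.7 ± 2.9 CPM in BC and 241 ± 2.0 CPM in CB. *Mirg* was at 2.17 ± 0.032 and 18.7 ± 0.30 CPM (SD, n = 2). The difference in level was not tested here.

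*Dlk1*, the paternally expressed ligand-like gene of the same cluster, did not follow its imprint. It had 84 maternal and 58 paternal fragments in BC wt 1 and 67 and 44 in BC wt 2, close to equality. The counts were 108 and 29 in CB wt 1 and 103 and 36 in CB wt 2, so that the maternal allele was higher in all 4 libraries. Its paternal share was 43.1% ± 0.74 in BC and 20.8% ± 3.0 in CB, and it was the only core gene called for the parent opposite to the listed one (log2 1.09, SE 0.14, edgeR adjusted p 1.18e-13). The ratio reached 2 in CB but not in BC.

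In the distal chromosome 7 clusters, the core maternal genes tested, *H19*, *Cdkn1c* and *Phlda2*, kept their bias. *H19*, a noncoding RNA that represses growth, had 2041 and 2014 maternal against 82 and 87 paternal fragments in BC. The CB libraries had 1842 and 1698 against 56 in each. The share was 95.5% ± 0.24 and 97.4% ± 0.14 maternal, and the replicates were far closer to each other than to equality. *Cdkn1c*, a cyclin-dependent kinase inhibitor, was 81.1% ± 1.0 maternal in BC and 92.7% ± 3.1 in CB (log2 2.83, SE 0.11, edgeR adjusted p 2.33e-136). *Phlda2*, which limits placental growth, was 87.6% ± 0.63 maternal in BC and 71.9% ± 4.1 in CB (log2 2.03, SE 0.082, edgeR adjusted p 1.99e-131). *Kcnq1ot1*, the paternal antisense RNA that silences this cluster in cis, had 115 and 150 paternal against 3 and 5 maternal fragments in BC. The CB libraries had 45 and 26 paternal fragments and no maternal one, which allows a maternal share of up to 6.67% and 11.5%. The kit did not keep strand, so these reads cannot be told apart from those of *Kcnq1* on the other strand, which had 1 to 4 SNP fragments.

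*Igf2*, the paternally expressed growth factor beside *H19*, kept its bias in CB only. In BC it had 78 maternal and 57 paternal fragments in wt 1 and 54 and 39 in wt 2, a paternal share of 45.0% ± 0.079. CB wt 1 had 61 and 301 and CB wt 2 had 74 and 274, a paternal share of 78.4% ± 3.5. The ranges did not overlap, and the parental ratio differed between the crosses (log2 of the strain term 1.22, SE 0.12, edgeR adjusted p 1.82e-22). Total *Igf2* was at 18.6 ± 4.0 CPM in BC and 84.5 ± 2.7 CPM in CB. The sum of the fibroblast feeder markers given above was also higher in CB, though not every member was. In BC, *H19* was thus one-sided and *Igf2* was not.

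*Grb10*, an adaptor that dampens insulin and growth factor signalling, was maternal in both crosses and weaker in CB. It had 2096 and 80 fragments from mother and father in BC wt 1 and 1602 and 59 in BC wt 2, or 96.0% ± 0.078 maternal. The CB libraries had 1017 and 238 in wt 1 and 989 and 255 in wt 2, or 82.6% ± 0.95. The difference between crosses passed the test (log2 of the strain term 1.30, SE 0.066, edgeR adjusted p 2.49e-83).

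Among paternal genes, *Mest*, *Peg13*, *Kcnq1ot1*, *Snrpn* and *Snurf* were monoallelic in both crosses. *Mest*, of the hydrolase family (chr6:30723547-30748465, plus strand), had 818 and 755 paternal against 11 and 12 maternal fragments in BC. In CB it had 517 and 550 against 5 and 4, and its paternal share was 98.7% ± 0.14 and 99.0% ± 0.19. *Peg13*, a noncoding RNA inside an intron of *Trappc9*, was 98.9% ± 0.035 and 99.2% ± 0.044 paternal. *Trappc9* itself, which the list gives as maternal in certain tissues, was at 59.2% ± 4.8 and 59.8% ± 2.8 maternal. *Peg13* is annotated as sense intronic, so strand would not separate it from its host. Whether *Peg13* reads counted toward *Trappc9* was not tested.

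*Snrpn*, a spliceosome protein gene of the Prader-Willi and Angelman domain, had 735 and 1297 paternal fragments in BC and 750 and 773 in CB. Its maternal fragments were 24 and 25 in BC and 4 and 3 in CB, so its paternal share was 97.7% ± 0.81 and 99.5% ± 0.12. *Snurf* shares a transcript with *Snrpn* and its counts are not separate evidence. It had no maternal fragment among 44 and 77 in BC, which allows a share of up to 6.82% and 3.90%, and 3 and 2 among 38 and 43 in CB. *Magel2*, an adaptor of ubiquitin ligases in the same domain, was 91.8% ± 7.5 and 82.4% ± 12 paternal (log2 -3.02, SE 0.27, edgeR adjusted p 2.01e-27).

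The other genes of the domain near *Magel2* were less one-sided, and none was called. *Ndn*, which encodes necdin, had 34 and 38 paternal against 26 and 18 maternal fragments in BC and 17 and 27 against 18 and 19 in CB. *Peg12* had 27 and 34 paternal against 26 and 22 maternal fragments in BC and 26 and 35 against 27 and 29 in CB. *Mkrn3*, a ubiquitin ligase gene, had 21 and 23 paternal against 15 and 18 maternal in BC and 23 and 22 against 14 and 6 in CB. The edgeR adjusted p was 0.0589 for *Ndn*, 0.344 for *Peg12* and 0.0053 for *Mkrn3*, with log2 ratios of -0.52, -0.27 and -0.83. *Mkrn3* thus passed the test and missed the ratio of 2, with a paternal share of 60.1% ± 1.4 in BC and 67.1% ± 12 in CB, and its paternal allele was higher in 4 of 4 libraries. *Ndn* was 65.0% ± 7.8 paternal in BC and 49.8% ± 7.1 in CB.

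*Peg10*, *Sgce* and *Peg3* were paternal in both crosses, with higher shares in CB. *Peg10*, a retrotransposon-derived gene needed in placenta, had 7747 and 7472 paternal against 992 and 893 maternal fragments in BC. In CB it had 11642 and 11760 against 416 and 402. Its paternal share was 90.1% ± 0.48 in BC and 96.1% ± 0.11 in CB, with no overlap of the replicates. *Sgce*, the sarcoglycan gene that shares its promoter region, was 88.6% ± 4.6 and 95.3% ± 1.9 paternal. *Peg3*, a zinc finger gene, had 3817 and 3090 paternal against 614 and 562 maternal fragments in BC and 2602 and 2476 against 95 and 67 in CB. Its paternal share was 86.8% ± 0.94 and 96.4% ± 0.72, and the difference between crosses passed the test (strain term 1.16, SE 0.054, edgeR adjusted p 7.06e-100). *Zim1*, the maternal neighbour of *Peg3*, was weakly maternal at 72.1% ± 2.6 and 69.5% ± 5.9 (log2 1.19, SE 0.22, edgeR adjusted p 8.15e-07).

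*Zrsr1*, a splicing factor gene nested in an intron of *Commd1*, was 87.7% ± 6.3 paternal in BC and 81.7% ± 7.5 in CB (log2 -2.54, SE 0.17, edgeR adjusted p 5.32e-49). Its host *Commd1* showed a strain effect instead. It had 647 and 912 maternal against 49 and 30 paternal fragments in BC, and 9 and 14 against 336 and 345 in CB, so BL6 was higher in all 4 libraries (strain term 4.53, SE 0.11). *Blcap*, *Pon2* and *Asb4*, listed as maternal in brain or extraembryonic tissue, also followed BL6, with strain terms of 1.66, 3.01 and 3.17. Their maternal shares in BC were 77.0% ± 0.49, 84.1% ± 5.6 and 93.7% ± 2.5. A BC cross alone could not have separated these values from an imprint, and the CB shares were 29.1% ± 3.1, 8.42% ± 4.9 and 18.6% ± 4.8.

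*Plagl1* and *Mcts2* were relaxed in BC and monoallelic in CB. *Plagl1*, a zinc finger regulator of the imprinted gene network (chr10:13060504-13131694, plus strand), had 71 maternal and 85 paternal fragments in BC wt 1 and 62 and 93 in BC wt 2. In CB it had 16 and 286 in wt 1 and 18 and 324 in wt 2. The paternal share was 60.1% ± 3.9 in BC against 93.9% ± 0.016 in CB, and the strain term was 1.82 (SE 0.14, edgeR adjusted p 4.67e-37). Its total level was 7.12 ± 0.59 CPM in BC and 22.5 ± 0.16 CPM in CB, so the line with both alleles had the lower total, and this difference was not tested.

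*Mcts2*, a retrogene inside an intron of *H13*, had 52 maternal and 80 paternal fragments in BC wt 1 and 63 and 70 in BC wt 2. In CB it had 3 and 70 in wt 1 and 5 and 74 in wt 2. Its paternal share was 59.5% ± 5.4 in BC and 94.0% ± 1.8 in CB (strain term 1.82, SE 0.22, edgeR adjusted p 6.06e-16). *H13*, a signal peptide peptidase gene whose full-length transcript is maternal, was at 60.7% ± 2.0 maternal in BC and 79.6% ± 1.5 in CB. *Igf2r*, which clears IGF2 and is silenced on the paternal allele by the RNA *Airn*, was 54.1% ± 1.9 maternal in BC and 71.2% ± 0.41 in CB. It was not called, as its ratio was under 2 (log2 0.71, SE 0.049). *Airn* had 0 to 6 SNP fragments in a library, all of them paternal.

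*Impact*, a regulator of translation, had the reverse pattern. On chromosome 18 (12955852 to 12992950, plus strand) it had 208 maternal and 1705 paternal fragments in BC wt 1 and 188 and 1776 in BC wt 2. In CB it had 483 and 623 in wt 1 and 472 and 647 in wt 2. Its paternal share was 90.8% ± 0.88 in BC and 53.2% ± 1.0 in CB, and it was the only core gene tested that was monoallelic in BC and between 33.3% and 66.7% in CB. The strain term was -1.42 (SE 0.050, edgeR adjusted p 1.12e-170), and the total was at 177 ± 7.7 and 206 ± 0.30 CPM.

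The noncanonical genes tested showed no paternal bias shared by the crosses. *Sfmbt2*, a Polycomb gene imprinted in extraembryonic tissue, had 1797 and 1575 maternal against 543 and 524 paternal fragments in BC and 528 and 535 against 2441 and 2468 in CB. BL6 was thus ahead as mother in BC and as father in CB (strain term 1.88, SE 0.037). *Smoc1*, a secreted matrix protein gene, did the same, with a paternal share of 24.7% ± 0.39 in BC and 75.8% ± 3.7 in CB. *Slc38a4*, an amino acid transporter gene, was near equality at 56.7% ± 2.3 and 45.8% ± 1.1 paternal. *Jade1* was 50.6% ± 1.4 paternal in BC and 31.4% ± 1.5 in CB.

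Genes under the minimum could not be judged. *Nnat* had 1180 to 2558 diploid fragments in a library but no SNP fragment, so its alleles were not distinguished. *Kcnq1* and *Slc22a18* had mostly maternal fragments (11 of 11 and 30 of 35 over the 4 libraries), and *Nap1l5* and *Nespas* mostly paternal ones (18 of 22 and 17 of 22). *Usp29*, next to *Peg3*, had 49 paternal among 71 fragments. These 5 genes leaned to the listed parent but were not tested. *Dio3* of the *Dlk1*-*Meg3* cluster, listed as paternal, had 15 paternal among 36 fragments. *Rtl1* of the *Dlk1*-*Meg3* cluster, listed as paternal, had 13 of 13 fragments maternal in CB. On chromosome 1, *Zdbf2* had 923 and 781 paternal against 757 and 647 maternal fragments in BC and 460 and 445 against 189 and 224 in CB.

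Outside the list, 25 genes were 2-fold in both crosses, 20 maternal and 5 paternal, and those named here were chosen after their values were seen. *Snhg14*, the noncoding host gene of the snoRNAs downstream of *Snrpn*, is itself part of the imprinted domain. It had 875 and 899 paternal against 24 and 13 maternal fragments in BC and 298 and 357 against 4 and 5 in CB (log2 -5.90, SE 0.13). The remaining paternal genes were *Gm6682*, *Gm14393*, *Rex2* and *Pdgfrb*. *Gm6682* is a processed pseudogene with 0 maternal among 54 and 38 fragments in BC, while CB had 33 and 24 maternal against 1244 and 1201 paternal. Its total level was 0.57 CPM in BC and 64.3 CPM in CB. SNP fragments were 100% and 95% of its diploid fragments in BC and 38.2% and 37.5% in CB, so its allelic reads are uncertain. *Rex2* and *Gm14393* belong to zinc finger families with close copies, so their allelic reads are uncertain. *Pdgfrb*, a growth factor receptor gene of mesenchyme, had 37 and 30 paternal against 9 and 13 maternal fragments in BC and 44 and 47 against 16 and 16 in CB (log2 -1.59, SE 0.22, edgeR adjusted p 1.18e-11).

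The 20 maternal genes off the list differed in how the crosses compared. *Bcat2*, which encodes the mitochondrial branched-chain aminotransferase, had 2056 and 1876 maternal against 670 and 649 paternal fragments in BC and 875 and 844 against 0 and 1 in CB. *Plet1*, a surface protein gene, had 233 and 258 against 108 and 107 in BC and 123 and 111 against 0 and 0 in CB. *Acp1*, a phosphatase gene, had 289 and 374 against 30 and 47 in BC and 138 and 158 against 6 and 7 in CB (log2 3.76, SE 0.15, edgeR adjusted p 1.08e-141). *2610037D02Rik*, a long noncoding RNA, had 538 and 589 against 65 and 43 in BC and 25 and 26 against 2 and 1 in CB. The genes *Slc4a4*, *Uggt2*, *Galnt10*, *Cables1*, *Slc38a3* and *Tbc1d24* had log2 ratios of 1.40 to 1.88 over both crosses. *Slc4a4* was 82.2% ± 3.2 maternal in BC and 75.9% ± 5.5 in CB, and *Uggt2* 80.4% ± 1.9 and 74.4% ± 0.64.

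*Rplp0*, a ribosomal protein gene with processed copies elsewhere in the genome, had 23852 and 26798 maternal against 235 and 256 paternal fragments in BC but only 472 and 473 against 12 and 10 in CB. Its SNP fragments were 36.2% and 30.6% of its diploid fragments in BC and 1.78% and 1.84% in CB, so SNP reads covered *Rplp0* unequally in the crosses. Among the largest ratios off the list, *Gm6682*, *Eef1a1*, *Psma5*, *Pgam1*, *Nsa2* and *Pigp* (paternal) also had unequal SNP coverage between the crosses. For *Psma5* the SNP fragments were 1.14% and 1.31% of the diploid ones in BC and 22.3% and 23.9% in CB.

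The 154 maternal calls that were 2-fold in CB only had a median maternal share of 52.4% in BC and 88.4% in CB. In BC 98 of them were within 25% of equality, and 64 of the 154 were at least 90% maternal in both CB libraries. Examples are *Thoc1*, a mRNA export factor gene, with 560 and 632 maternal against 496 and 568 paternal fragments in BC and 580 and 626 against 0 and 0 in CB. *Eif5a*, a translation factor gene, had 4154 and 4340 against 2687 and 2573 in BC and 2533 and 2458 against 1 and 2 in CB. *Thyn1*, *Zfand6*, *Tmem11*, *Zfp644* and *Strn3* had no paternal fragment in CB and both alleles in BC. A call required the same parent to be higher in both crosses and a ratio of 2 over both. In all, 437 genes were 2-fold maternal in CB and within 25% of equality in BC, of which 98 were called. Of these 437, 179 were on the maternal side in BC, with 98 called, and 258 were not, with 0 called by construction. By comparison, 74 genes were 2-fold paternal in CB and within 25% in BC, of which 7 were called. With the crosses exchanged, 39 genes were 2-fold maternal and 53 were 2-fold paternal in BC while within 25% of equality in CB.

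Of the 154 CB-only maternal genes, 109 (70.8%) had another of them within 1 Mb, against 1182 (12.8%) of all 9258 genes tested. On chromosome 7 there were 34 among 845 genes tested, on chromosome 9 22 among 635, and on chromosome 12 20 among 399. Windows of 1 Mb with at least 5 tested genes, at least 50% of them over 90% maternal, occurred 3 times in CB and not in BC, on chromosomes 3, 14 and 19. In the window of chromosome 14 starting at 70 Mb, 10 of 17 genes were one-sided, and the median maternal share was 49.0% in BC and 99.5% in CB. The 154 genes had a median log2 ratio of CB to BC in diploid CPM of -0.06 (quartiles -0.37 and 0.29), against 0.07 (quartiles -0.22 and 0.46) for all genes tested. The cause was not tested.

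**Figure D3:**
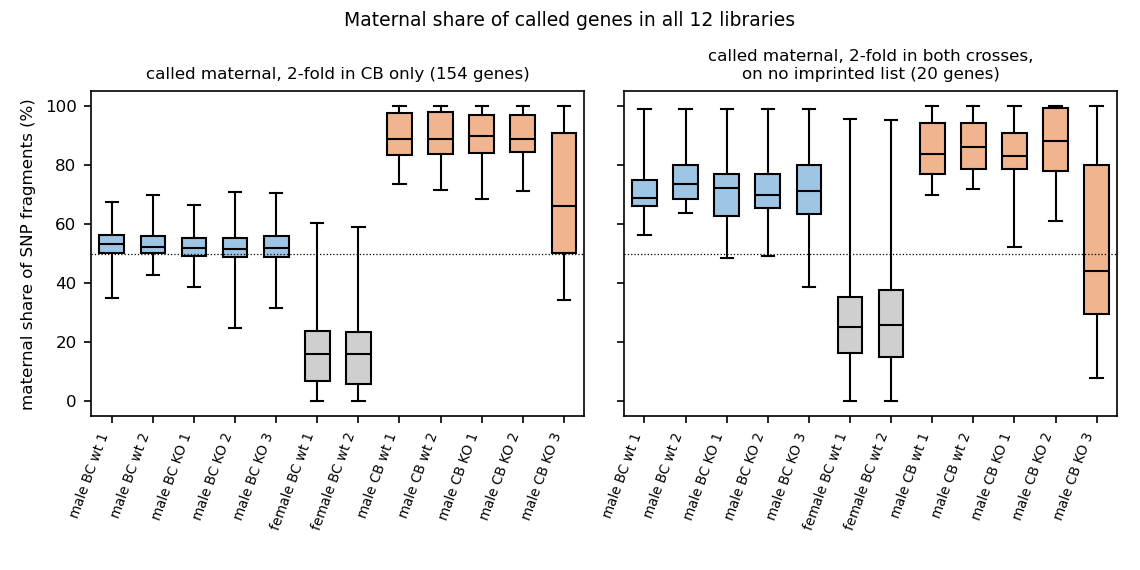
Maternal share (%) of SNP fragments in each of the 12 libraries for 154 genes called maternal with a ratio of 2 in CB only (left) and 20 genes off the imprinted list called maternal with a ratio of 2 in both crosses (right); boxes are quartiles with the median, whiskers the lowest and highest gene, blue for male BC, grey for female BC and orange for male CB libraries. The female BC libraries have medians below 50% in both panels, at 16.0% and 16.1% on the left and 25.1% and 25.7% on the right. The median of male CB KO 3 lies below those of the other CB libraries.

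The female BC line, which has the same mother and father strains as male BC, was not used for the calls and allowed them to be read in a further line. In the female libraries 153 and 152 of the 154 genes had at least 20 fragments, and their median maternal share was 16.0% and 16.1%, that is, *cast* was ahead as father in female BC and as mother in male CB. Of the 20 off-list maternal genes, 19 and 18 had at least 20 fragments in the female libraries, and the maternal allele was higher for 1 and 3 of them. *Bcat2* had 23 and 26 maternal against 3490 and 2748 paternal fragments there, and *Acp1* 10 and 8 against 70 and 61. *Rplp0* was maternal there too, at 7689 and 6225 against 423 and 369. Parental and strain effects cannot be told apart within the female line.

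Core imprinted genes were read in the female line in the same way, without a test between lines. Of 16 core genes that kept at least 66.7% in both male crosses and had 20 fragments in the female libraries, 12 were between 33.3% and 66.7% from the listed parent, 1 was above and 3 below. *H19* was 55.9% ± 0.44 maternal, with 1108 and 1020 fragments from mother and father in female wt 1. *Mest* was 46.4% ± 0.81 paternal, *Peg13* 42.7% ± 2.4, *Snrpn* 34.6% ± 1.2 and *Peg3* 57.6% ± 0.21 (SD, n = 2). The 3 genes below were *Meg3*, *Rian* and *Mirg*, at 24.2% to 26.6% maternal, so that the father was ahead. The 1 gene above was *Phlda2*, at 81.9% ± 1.2 maternal. *Plagl1* and *Igf2*, already relaxed in male BC, were 19.6% ± 0.44 and 19.5% ± 2.9 paternal, and BL6 was ahead.

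**Figure D4:**
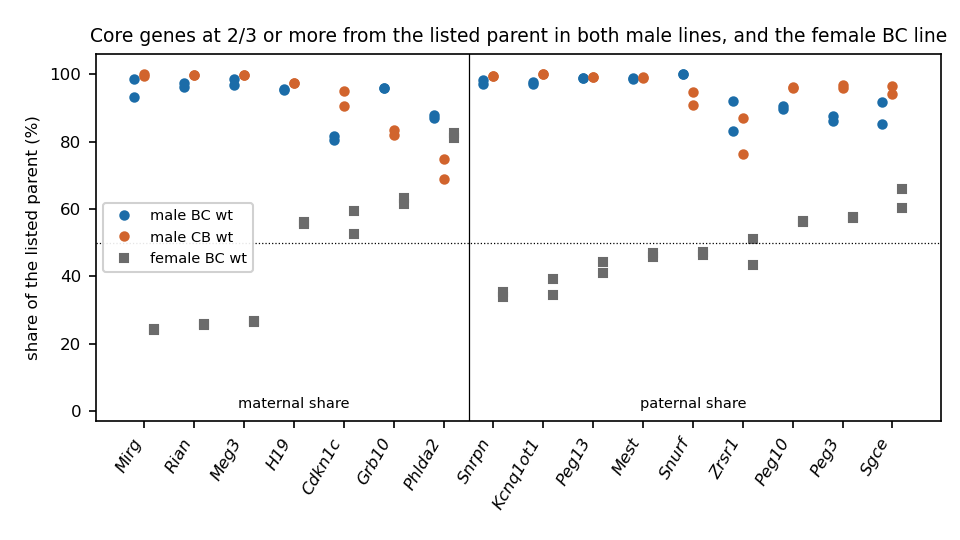
Share (%) of SNP fragments from the listed parent for 16 core genes that kept at least 66.7% in both male crosses, 7 maternal (left of the line) and 9 paternal (right); each point is 1 library, circles for male BC wt (blue) and male CB wt (orange) and squares for female BC wt. Apart from *Phlda2*, the female squares lie below the points of both male lines, most of them near the dotted line at 50%.

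The KO clones derive from the 2 male lines and show how stable the state of a line was across clones. The paper states that the BC clones with the exon deletion came from the same editing event. These are ΔE1 and ΔE3, so they do not count as independent clones. All 10 listed paternal genes that were 2-fold in both crosses stayed 2-fold paternal in each of the 3 BC KO clones. In the CB KO clones 9 of 10, 8 of 9 and 10 of 10 with coverage did so, the exception being *Zrsr1*, with 88 maternal and 77 paternal fragments in clone ΔE2.5 and 84 and 81 in ΔE2.7. *Meg3* had 1 to 7 SNP fragments in the BC KO clones. It had 2822, 2248 and 2230 in the CB KO clones, of which 7, 5 and 6 were paternal. *H19* was at 247 and 169 fragments from mother and father in ΔE1 and 36 and 17 in ΔE3, but at 2340 and 53 in ΔP4. *Grb10* had 55 maternal and 68 paternal fragments in ΔE2.5 and 63 and 111 in ΔP2.1, but 747 and 102 in ΔE2.7. *Impact*, near equality in CB wt, was maternal in all CB KO clones, with 1546 and 738, 1178 and 505, and 975 and 621 fragments. *Mcts2* had 12 maternal and 104 paternal fragments in ΔP4 and near equal numbers in the related clones ΔE1 and ΔE3. This relaxed gene thus differed between ΔP4 and that pair within 1 line. Of the 20 off-list maternal genes, those with coverage had the maternal allele higher in 18 of 20, 19 of 20 and 18 of 19 in the BC KO clones. In ΔE2.5 and ΔE2.7 it was higher in 19 of 19 and 16 of 16, but in ΔP2.1 in 9 of 20. The median maternal share of the 154 CB-only genes was 89.8% and 88.7% in ΔE2.5 and ΔE2.7, against 66.0% in ΔP2.1. The ΔP2.1 median covers unlike values that differed by chromosome. Those of the 154 genes on chromosome 7 were 68.2% to 100% maternal in ΔP2.1. Those on chromosome 12 were 37.0% to 58.0% maternal, apart from *Dlk1* at 79.6%. *Kdm6a* deletion and clonal history cannot be told apart here.

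Imprint maintenance factors were expressed from both parents. Of 19 factors, 18 were tested and none was called for a parent by edgeR, DESeq2 or limma. Among all genes tested, edgeR called 2.59% for a parent. Of the 18 factors, 12 had an unadjusted p under 0.05 with edgeR, a share that was not counted over all genes. The median of their log2 ratios was -0.07 (range -0.60 for *Dppa3* to 0.95 for *Arid4a*). *Zfp57*, which binds methylated imprinting control regions, followed BL6, and *Arid4a* followed *cast*. *Zfp57* was at 253 CPM in BC wt 1 and 204 CPM in CB wt 1. *Trim28*, its partner, was at 3433 and 2706 CPM, and *Dnmt1*, the maintenance methyltransferase, at 599 and 491 CPM.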

How the data were processed

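RNA was sequenced as single-end reads of 75 bases from an unstranded kit. The authors mapped reads to BL6 and to a pseudo-*cast* genome made from known SNPs, kept unique reads with a mapping quality of at least 30, and split those holding only BL6 or only *cast* SNPs. The submitters' processing notes name Bowtie2 2.2.5 and mm10. The annotation used for counting is not given in the sources used here. The deposited values are estimated counts of fragments per gene, of which a few are not whole, so they were rounded. A SNP missed in the pseudo-genome or a close copy elsewhere would move the allele share of a gene.

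Genes were placed with GENCODE M21 on GRCm38, and 1036 of 24346 symbols without a position were left out. Maternal was BL6 in BC and *cast* in CB. The 8 allele columns of the 4 male wt libraries were scaled by TMM and fitted with edgeR 4.0.16 (R 4.3.3), with library, parent and strain as terms, leaving 2 residual degrees of freedom, and p-values were adjusted over all 9258 genes. Shares were divided by the allele ratio of the library, from summed fragments of the genes tested and not from TMM, while intervals and floors use raw fragments. Shares are given as mean ± SD of 2 libraries, a count of 0 allows up to 3 fragments, and the diploid totals were 80880720 and 83497935 in BC and 51457763 and 51384489 in CB. Replicates differed by more than sampling noise (mean chi-square per gene 30.3 in BC and 3.28 in CB).

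The members and lists were chosen with earlier results of these data known. Genes were named by rule: core and noncanonical imprinted genes tested, tissue-restricted ones called for a parent or strain, the 10 largest ratios per parent off the lists with the same parent higher in all 4 libraries, and called maintenance factors. Other genes were named after their values were seen. The alternatives were DESeq2 1.42.0, limma 3.58.1 on log2 ratios with a pseudocount of 0.5, other scalings, and minimums of 10 and 50 fragments or none. Further ones were a replicate block, each library left out, a ratio of 1.5, the same parent higher in each library, and chromosomes 1 and 8 included. The requirement of a ratio of 2 in each cross was chosen after seeing the data. On data simulated for this comparison, edgeR called 98.5% of 200 genes changed by 1.5 on the log2 scale among 9258. KO and female libraries entered no test. The authors' sequence variants and a genome were not used here, and no sequence is shown.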

Additional observations from a re-analysis of the deposited data

Results flagged for a closer look

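The strain term of the edgeR fit, which tests whether the parental ratio differed between the crosses, had an adjusted p under 0.05 for 23 of 32 core and noncanonical genes tested. For 13 of them it also reached a ratio of 2, and these are given here. Of all 9258 genes tested, 1390 (15.0%) met both limits. The share of all genes that met the p limit alone was not counted. A positive term is a log2 advantage of BL6 over *cast*. Each cross is 1 line, so strain and line cannot be told apart.

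For paternal genes, the term was 1.82 for *Mcts2* (log2 ratio of maternal to paternal -0.47 in BC and -4.06 in CB), 1.82 for *Plagl1* (-0.51 and -4.12) and 1.22 for *Igf2* (0.36 and -2.07). *Peg3*, at 1.16, and *Snrpn*, at 1.13, were paternal in both crosses. *Impact* had -1.42 (-3.23 in BC and -0.40 in CB). *Snurf* had -2.41, with no maternal fragment in BC, so its fitted ratios give no bound.

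For maternal genes, the term was 1.30 for *Grb10* (4.63 in BC and 2.04 in CB), -1.92 for *Meg3*, -1.82 for *Rian* and -1.89 for *Mirg*. These last 3 were maternal in both crosses, and *Mirg* had no paternal fragment in CB wt 1. Among noncanonical genes it was 1.88 for *Sfmbt2* and 1.77 for *Smoc1*, each with opposite parents ahead in the crosses.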

How the results depend on the processing

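The 191 maternal and 49 paternal calls became 185 and 47 with DESeq2, 185 and 46 with limma, and 197 to 206 and 52 to 56 with 1 library left out. The replicate block left 191 and 49, and the replicate numbers are only shared (correlation of the differences between replicates -0.012 over 6440 genes). With the allele ratio over all autosomal genes the maternal calls were 115. Without a filter the paternal calls were 79. Requiring the same parent to be higher in each library left 156 maternal and 42 paternal calls. A ratio of 1.5 gave 361 maternal and 107 paternal calls, and a ratio of 2 in each cross, chosen after seeing the data, 27 and 15. Those last counts were 25 to 32 and 16 to 17 with 1 library left out, 53 and 32 without a filter, and 19 and 8 with at least 50 fragments. The number of genes with a strain effect was 1390, 1381 with DESeq2 and 1402 to 1461 with 1 library left out.

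Taking 80% as monoallelic gave 14 core genes in place of 9, and a minimum of 50 fragments left 2 core genes in place of 4 under 66.7% in both crosses, from fewer genes tested. Of 74 named genes, *9330182L06Rik*, *Trib2* and *Tshz3* were not called by DESeq2 (adjusted p 0.136, 0.0553 and 0.070), *Tshz3* also not without BC wt 2, and *Thoc1*, *Zfand6* and *Zfp644* not with the ratio over all autosomes. *Mkrn3* was called without CB wt 1. Low SNP coverage limits the genes with few fragments, such as *Ndn* and *Peg12*. The cause of these changes was not tested.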
